A study of Mus musculus with 8 samples.

Results

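The 32 genes described here serve DNA replication and cell division and were followed in brain microvessels of newborn mice. They were chosen as a list of names and not by a cut on their values, though with earlier results of these data known. One of them, Ccnb1, had no probe set with that single symbol, so its level was not analysed here and it enters only the promoter counts. Of the other 31 genes, 30 were bright enough to be tested, among 11446 tested genes in all, and Tyms was not. The brightest probe set, by its mean on the 8 arrays, stood for each gene. The study measured RNA on 8 single-colour oligonucleotide arrays, 1 for each brain at postnatal day 1. Fragments of small vessels with their attached pericytes had been captured on magnetic beads that carry an antibody to PECAM, a protein of the endothelial surface. Mutants (4 brains) were PDGFRb (D849V) knock-in mice, whose receptor, a pericyte protein, signals without its ligand. Controls (4 brains) were wild type, and both groups had a mixed 129S/J background. The sources used here give no zygosity, litter or sex, and they place the active receptor in pericytes without saying which other cells carry it.

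Dividing cells copy their DNA once and then separate the copies. Replication origins are licensed by loading the MCM helicase with the help of Cdc6, cyclin E and its kinase start the copying, and Pcna, ribonucleotide reductase and thymidylate synthase serve DNA synthesis. Cyclins A and B with Cdk1, and the Polo-like and Aurora kinases, then drive mitosis, which the spindle checkpoint holds until chromosomes are attached. In the newborn brain many vascular cells and neural progenitors divide, and many of these transcripts are abundant only in part of the cell cycle. In a bulk sample fewer dividing cells and less of the transcript per cell cannot be told apart. Cldn5, a tight junction protein of brain endothelium, lay between 14.29 and 14.65 on the 8 arrays on the log2 scale. Rgs5, a pericyte marker, lay between 14.37 and 14.83, so these markers of the labelled preparation were present on every array. Other markers were less even, as given below.

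The promoters of these genes carry letters that differ between the replication and mitosis genes, and they are shown for a few members picked as examples. The length of each stretch was also chosen, gene by gene, and each lies outside the RefSeq span of its gene. Sequences are those of RefSeq on build GRCm38.p6, read 5′ to 3′ on the strand of the gene and ending at the base before its start site. Capitals mark TTTGAA, the letters of the cell cycle genes homology region (CHR) used by mitotic genes, CCAAT, the box bound by NF-Y, and the E2F letters TTTGGCGC, TTTCGCGC and TTTCCCGC, each on either strand. In the stretch of Mcm6 the first run of capitals is a pair of overlapping E2F matches, TTTGGCGC and the reverse complement of TTTCGCGC.
Mcm6, chr1:128359706-128359820, minus strand: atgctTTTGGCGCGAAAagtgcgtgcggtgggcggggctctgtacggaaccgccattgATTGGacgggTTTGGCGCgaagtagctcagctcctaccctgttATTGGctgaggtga
Cdk1, chr10:69352913-69353047, minus strand: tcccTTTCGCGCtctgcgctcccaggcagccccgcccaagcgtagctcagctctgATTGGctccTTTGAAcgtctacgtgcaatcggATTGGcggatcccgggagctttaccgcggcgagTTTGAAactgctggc
Cdc20, chr4:118437344-118437403, minus strand: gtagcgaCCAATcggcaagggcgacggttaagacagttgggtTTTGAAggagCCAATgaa
Kif11, chr19:37376322-37376381, plus strand: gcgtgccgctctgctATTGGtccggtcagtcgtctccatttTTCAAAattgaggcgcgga
Cenpe, chr3:135212503-135212562, plus strand: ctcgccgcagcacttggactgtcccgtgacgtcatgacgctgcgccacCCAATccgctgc
Mcm6, a replication gene, held E2F and NF-Y letters and no CHR letters in this stretch. The stretches of Cdk1, Cdc20 and Kif11, all mitotic genes, held CHR and NF-Y letters together. The stretch of Cenpe held a single NF-Y box.

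Promoter entries of 300 bases, from 250 before to 50 after the start site, were found by symbol for 26 of the 32 members, and Ect2 had overlapping entries that were joined. Of the 17 mitosis genes with an entry, 12 (70.6%) held the CHR letters, against 14.3% of the 9276 tested genes with an entry and 20.2% of all 27025 genes of the table. Those 12 also held an NF-Y box, a pair of motifs found together in 5.68% of tested genes. Among the 9 replication genes with an entry, 1 held the CHR letters, Mcm2. For the E2F letters the order was the other way round: 4 of the 9 replication genes (44.4%), Cdc6, Mcm3, Mcm5 and Mcm6, held at least 1 of the 3 forms, against 3.97% of tested genes and 1 of the 17 mitosis genes, Cdk1. A match describes these letters only, and their absence in this window says nothing about a factor.

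**Figure D1:**
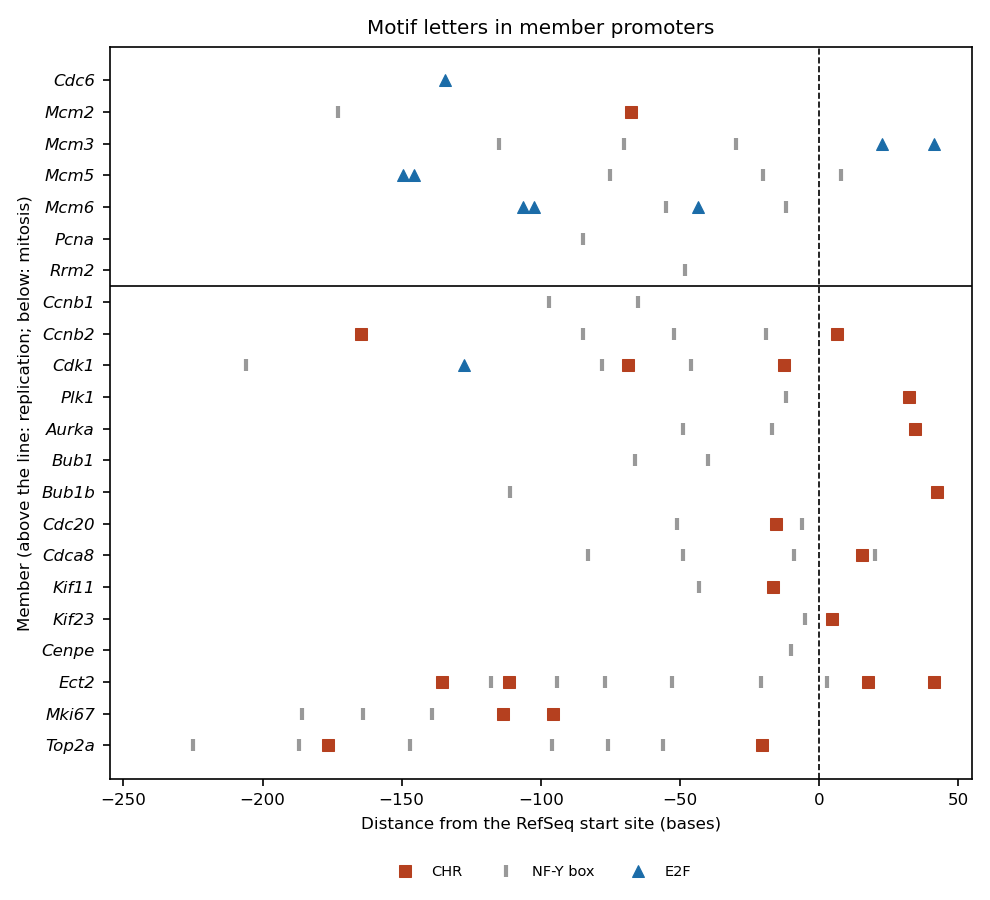
Positions of the CHR, NF-Y box and E2F letters (symbols) from 250 bases before to 50 bases after the RefSeq start site (dashed line, horizontal axis in bases) in the 22 members with at least 1 match, the entries of Ect2 joined. CHR squares sit in 12 mitosis genes below the horizontal line and in 1 replication gene, Mcm2, above it.

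The comparison asks whether an always-active PDGF receptor beta alters the proliferation programme of newborn brain microvessels. None of the 30 tested members passed limma's test of mutants against controls at a Benjamini-Hochberg adjusted p under 0.05, while 4.58% of all tested genes did (2.66% higher and 1.92% lower in mutants). At an unadjusted p under 0.05 the members gave 3 genes (10.0%), Mcm6, Cenpe and Kif23, against 20.6% of all tested genes. The 4 mutant and 4 control values overlapped in every tested member, whereas they did not overlap in 14.5% of all tested genes. The 95% interval of the difference lay within a 2-fold change either way for all 30 members and within a 1.5-fold change for 22 of them. The median difference of the members was -0.03 on the log2 scale, mutant minus control, against -0.11 for all tested genes. The precision was like that of other genes, with a median SE of 0.129 for the members and 0.141 for all tested genes.

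**Figure D2:**
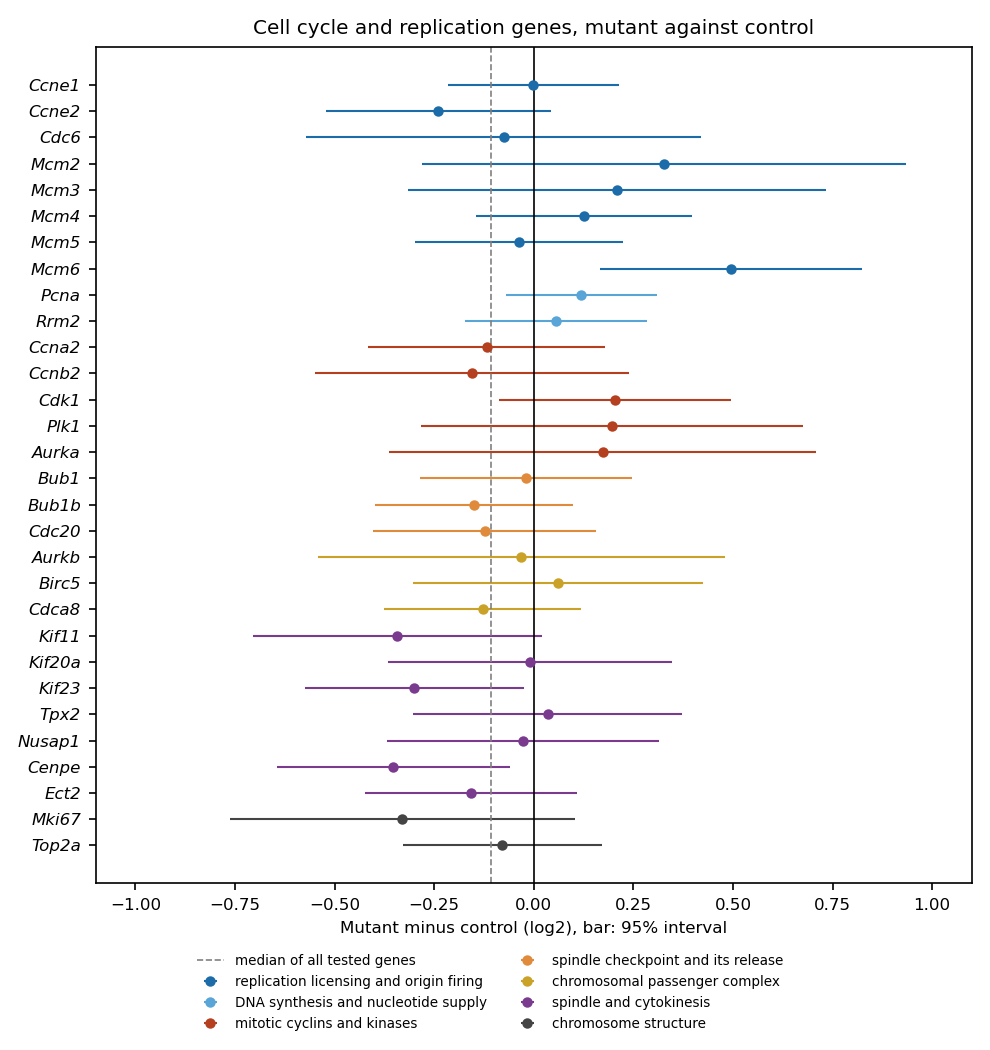
Fitted difference, mutant minus control on the log2 scale (points, 4 arrays a group), with its 95% interval (bars) for the 30 tested members, coloured by role, beside the median of all tested genes (dashed line at -0.11). All intervals lie between -0.76 and 0.94, and those of Mcm6, Kif23 and Cenpe do not reach 0.

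The 8 arrays did not divide by genotype alone. The array holds probe sets for the 5′ and 3′ ends of bacterial control transcripts that are made for spiking into RNA before labelling. For dap, 1 of these, the 5′ minus 3′ signal was -1.56, -1.82 and -2.06 on mutant arrays 1 to 3 and -1.27 on control array 1. It was -3.18 on mutant array 4 and -3.27, -3.18 and -3.14 on control arrays 2 to 4. A second transcript, thr, gave the same division, with values from -1.27 to -2.26 on the first 4 of these arrays and from -3.85 to -4.60 on the others. The mouse transcript Actb, measured the same way, stayed between -0.94 and -1.08 on all 8 arrays. The labels do not name what the 4 arrays of a set share, and each set holds 3 arrays of one genotype and 1 of the other, so genotype and set overlap in part. With the dap set as a block, an analysis chosen after seeing the data, 427 of the 11446 genes (3.73%; 2.19% higher, 1.54% lower) were called and again no member was (lowest limma adjusted p = 0.0704, Kif23). Where the block moved a member by over 0.1, its value with the block is given beside the result.

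**Figure D3:**
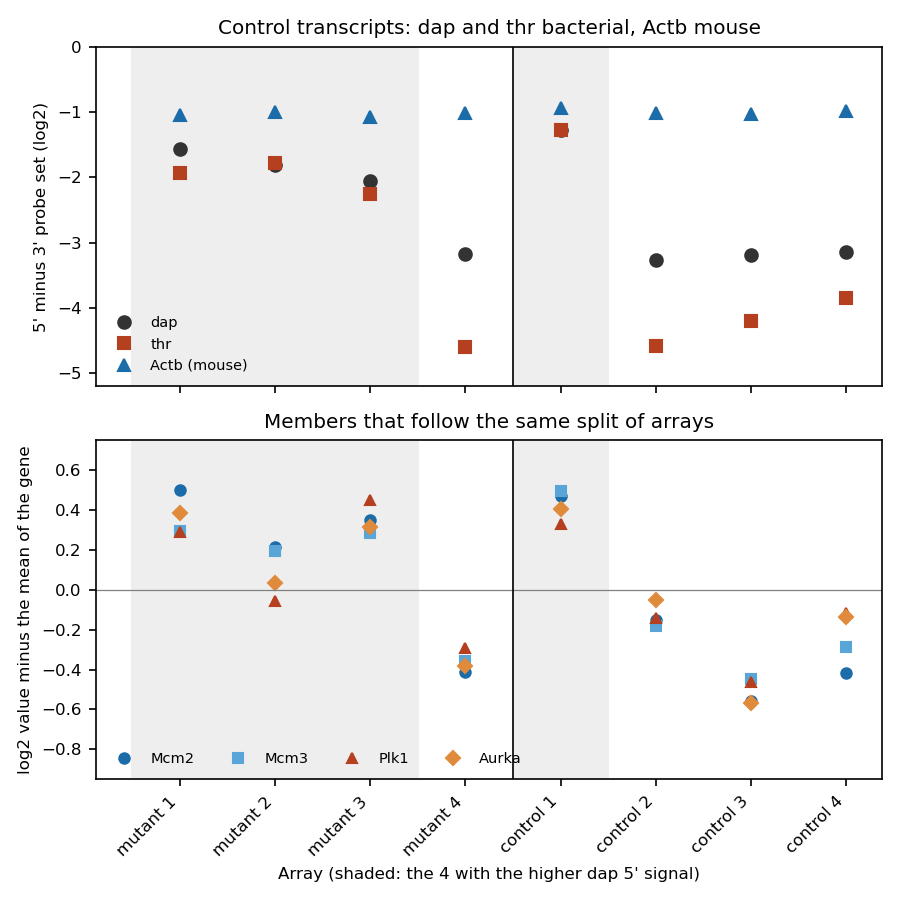
Upper panel: 5′ minus 3′ signal (log2) of the bacterial control transcripts dap and thr and of mouse Actb on each array; lower panel: log2 values of Mcm2, Mcm3, Plk1 and Aurka minus the mean of each gene. Shaded arrays are the 4 with dap values from -1.27 to -2.06, and on these each of the 4 genes lies higher than on any other array.

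Licensing and origin firing genes ranged from -0.24 to 0.49. Mcm6, a subunit of the replicative helicase, read 11.70, 11.96, 11.66 and 11.32 on the mutant arrays and 11.19, 11.33, 10.99 and 11.16 on the controls. The groups overlapped only by mutant array 4 and control array 2. Its difference was 0.49 (SE 0.144, 1.41-fold, limma adjusted p = 0.101), the lowest adjusted p of the members. With the dap set as a block it was 0.37 (limma adjusted p = 0.221). Without mutant array 4 it was 0.61 and passed (limma adjusted p = 0.0336), as 1 of 608 genes called among all 11446 tested.

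Mcm2, another helicase subunit, read 9.47, 9.18, 9.31 and 8.55 on the mutant arrays and 9.44, 8.81, 8.41 and 8.55 on the controls. The high values are those of the arrays with the higher dap 5′ signal, control array 1 included. The difference of 0.33 (SE 0.265, limma adjusted p = 0.511) became -0.08 with the dap set as a block, and within the sets it was -0.11 and -0.04. Mcm3 followed the same order, at 10.30, 10.20, 10.30 and 9.65 in mutants against 10.50, 9.83, 9.56 and 9.72 in controls. Its difference was 0.21 (limma adjusted p = 0.631), and -0.14 with the block.

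The other helicase subunits measured, Mcm4 and Mcm5, differed by 0.13 and -0.04 (limma adjusted p of 0.572 and 0.876). Cdc6, the loader of the helicase, read between 6.95 and 7.78 on all arrays, with mutant array 4 and control array 3 lowest, and differed by -0.08 (-0.33 with the dap set as a block). The E-type cyclins gave -0.001 for Ccne1 and -0.24 for Ccne2 (limma adjusted p of 0.997 and 0.311). A dimmer probe set of Ccne1 gave 0.38. Of the 8 genes of this role, 4 had a positive and 4 a negative difference.

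The genes of DNA synthesis had a narrow spread. Pcna, the sliding clamp of DNA polymerases, read 13.44, 13.38, 13.40 and 13.33 in mutants and 13.29, 13.37, 13.12 and 13.28 in controls. The groups overlapped by control array 2, and the difference was 0.12 (SE 0.0823, limma adjusted p = 0.439). Rrm2, the regulated subunit of ribonucleotide reductase, differed by 0.06 (limma adjusted p = 0.783). Tyms, thymidylate synthase, lay between 3.89 and 4.25 on its brightest probe set, above the level of 4 required on at least 4 arrays only on 2, so no difference is drawn from it. Over the 10 tested replication genes the median difference was 0.09, with 6 positive and 4 negative, and -0.03 with the dap set as a block.

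Mitotic cyclins and kinases showed no shared direction. Cdk1, the kinase of mitotic entry, read 11.32, 10.81, 11.09 and 10.88 in mutants and 10.80, 10.96, 10.68 and 10.83 in controls, a difference of 0.20 (SE 0.127, limma adjusted p = 0.395). Its cyclin partners differed by -0.12 for Ccna2 and -0.16 for Ccnb2 (limma adjusted p of 0.633 and 0.636). Ccnb2 was at 10.43, 9.65, 10.39 and 10.14 on the mutant arrays and between 10.17 and 10.37 on the controls, so mutant arrays 2 and 4 lay under all controls and mutant arrays 1 and 3 above them.

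Plk1 and Aurka, kinases of spindle formation, followed the dap sets as Mcm2 did. Plk1 read 8.10, 7.75, 8.26 and 7.52 in mutants against 8.14, 7.67, 7.35 and 7.70 in controls. Aurka read 7.83, 7.48, 7.76 and 7.06 against 7.85, 7.4, 6.88 and 7.31. Their differences of 0.20 and 0.17 (limma adjusted p of 0.625 and 0.707) became -0.08 and -0.15 with the dap set as a block.

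The spindle checkpoint genes lay close together in both groups. The checkpoint kinases Bub1 and Bub1b differed by -0.02 and -0.15. Cdc20, which activates the anaphase-promoting complex once the checkpoint is satisfied, read 11.68, 11.21, 11.66 and 11.66 in mutants and 11.61, 11.78, 11.63 and 11.67 in controls. Mutant array 2 stood apart, and the difference was -0.12 (SE 0.122, limma adjusted p = 0.597).

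In the chromosomal passenger complex, which corrects faulty spindle attachments, the kinase Aurkb differed by -0.03, Birc5 by 0.06 and Cdca8 by -0.13, with limma adjusted p of 0.953, 0.854 and 0.528. Aurkb read 8.78, 8.83, 9.03 and 8.24 in mutants and 9.17, 8.75, 8.27 and 8.81 in controls, and with the dap set as a block its difference was -0.33 (limma adjusted p = 0.288).

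Of the 7 spindle motors and cytokinesis genes, 6 had a negative difference, as did 7913 of all 11446 tested genes. None of the 7 passed the test. Kif23, a motor of the central spindle, read 8.73, 8.57, 8.86 and 8.43 in mutants and 9.13, 8.94, 8.79 and 8.93 in controls. The groups overlapped by mutant array 3 and control array 3, and the difference was -0.30 (SE 0.12, limma adjusted p = 0.208). Cenpe, a kinetochore motor, read 7.66, 7.97, 8.05 and 7.89 in mutants against 8.46, 8.0, 8.21 and 8.31 in controls. Its difference was -0.35 (SE 0.128, limma adjusted p = 0.172), the lowest of the members.

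Kif11, the motor that separates spindle poles, read 8.51, 8.80, 8.87 and 8.63 in mutants and 9.46, 8.84, 8.82 and 9.06 in controls. Control array 1 was the highest of the 8, and the difference was -0.34 (SE 0.159, limma adjusted p = 0.266). With the dap set as a block the values were -0.43 for Kif23, -0.43 for Cenpe and -0.51 for Kif11, with limma adjusted p of 0.0704, 0.163 and 0.127. The other genes of this role, Ect2, an activator of cytokinesis, Kif20a, Nusap1 and Tpx2, lay between -0.16 and 0.03 on their brightest probe sets. A dimmer probe set of Tpx2 gave -0.57. With the block Nusap1 was at -0.22, Kif20a at -0.12 and Tpx2 at -0.09.

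Mki67, the proliferation marker that coats mitotic chromosomes, read 10.34, 11.16, 10.67 and 10.54 in mutants and 11.24, 10.69, 11.06 and 11.03 in controls. Mutant array 2 lay within the range of the controls and the other mutants under all of them, and the difference was -0.33 (SE 0.19, limma adjusted p = 0.357; -0.45 with the dap set as a block). Top2a, the topoisomerase that untangles sister chromosomes, differed by -0.08 (limma adjusted p = 0.713; -0.20 with the block).

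Over the 20 tested mitosis genes the median difference was -0.10, close to the -0.11 of all tested genes. Of the 20, 5 were positive and 15 negative, beside 3533 positive and 7913 negative of all 11446 tested genes. Relative to the median of all genes, 10 of these 20 and 9 of the 10 replication genes lay higher without the block. With the dap set as a block, Cdc6 (-0.33) and Mcm3 (-0.14) of the replication genes fell under that median. Among the mitosis genes Aurka, Bub1, Aurkb, Kif20a, Nusap1 and Top2a fell under it, and Bub1b, Cdc20 and Cdca8 rose above it. With the block 1 mitosis gene, Cdk1, stayed positive, beside 3645 positive of all 11446 tested genes. The median of the 20 was then -0.14, against -0.11 for all tested genes. These are counts over chosen genes that share arrays, and the members are not replicates of a condition.

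**Figure D4:**
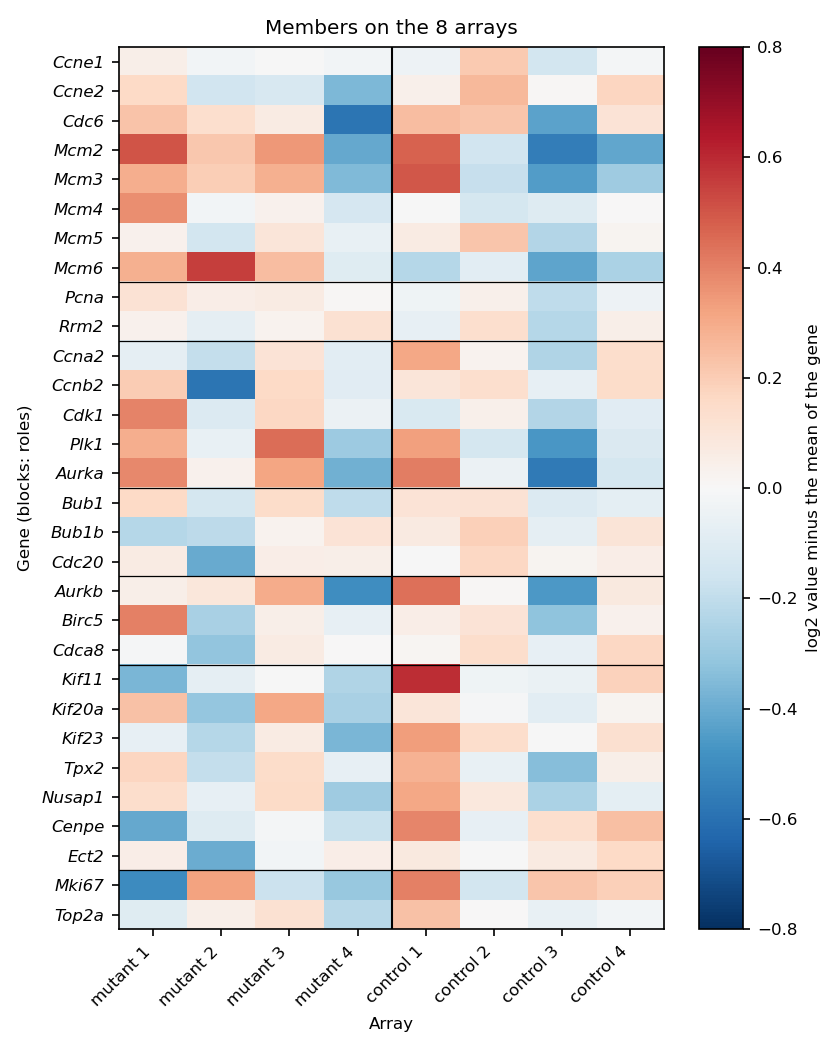
Log2 value of each of the 30 tested members on each array minus the mean of the gene (colour scale from -0.8 to 0.8), with mutants left of the vertical line and roles separated by horizontal lines. Control array 3 holds the lowest value of the 8 in 13 members, and Mcm2, Mcm3, Plk1 and Aurka are low on mutant array 4 and control arrays 2 to 4.

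The arrays ranked alike over many members. Control array 3 was the lowest control in 25 of the 30 members (83.3%), against 29.3% of all tested genes. Mutant array 4 was the lowest mutant in 14 (46.7%), against 22.5% of all tested genes, and in 7 of the 10 replication genes. Control array 1 was the highest control in 15 (50%), against 36.2%. The mean of the 30 members, each centred on its own mean, was 0.10, -0.08, 0.11 and -0.18 on the mutant arrays and 0.18, 0.04, -0.19 and 0.02 on the controls. So for this mean the spread within a group, with an SD of 0.141 in mutants and 0.152 in controls, was several times the difference of -0.02. That difference joins parts of opposite sign. The mean of the replication genes differed by 0.10 (SD 0.169 in mutants and 0.166 in controls). For the mitosis genes it differed by -0.08 (SD 0.144 and 0.151). In both parts the SD within a group was larger than the difference.

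Probe sets of the same gene did not always point the same way. The 31 measured members had 68 probe sets, of which 55 were tested singly and 0 were called, while 2.98% of the 19302 probe sets tested in all were (limma adjusted p under 0.05). Of 18 members with several tested probe sets, 10 had probe sets of opposite sign. The median of the largest gap within a member was 0.23, and the widest was 0.60. With the dap set as a block 6 of the 18 had opposite signs.

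Kif23 is an example among the spindle genes. Its brighter probe set gave -0.30 and its dimmer one, at 7.07, 6.28, 6.76 and 5.91 in mutants and 7.13, 5.87, 5.76 and 6.23 in controls, gave 0.25. The dimmer one was higher on every array with the higher dap 5′ signal than on the others, and with the block the values were -0.43 and -0.24. Mcm2 gave 0.33 and -0.21, and -0.08 and -0.27 with the block. Tpx2 gave 0.03 on its brightest probe set and -0.57 on the next, and -0.09 and -0.53 with the block. Ccne1 gave -0.001 on its brightest probe set and 0.38 on the next, and 0.006 and 0.17 with the block. Mcm5 gave -0.04 on its brightest probe set and 0.41 on the next, which read 8.89, 8.67, 8.90 and 7.62 in mutants and 8.90, 8.16, 7.47 and 7.93 in controls. With the block that value was -0.16. Mcm6 was positive on both of its tested probe sets, at 0.49 and 0.23, and at 0.37 and 0.28 with the block.

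In all, 11 of the 55 tested member probe sets (20.0%) were higher on all 4 arrays of the higher dap set than on all the others, against 7.12% of all tested probe sets. They belonged to Ccne1, Mcm2, Mcm3 (4 probe sets), Mcm5, Rrm2, Plk1, Aurka and Kif23.

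**Figure D5:**
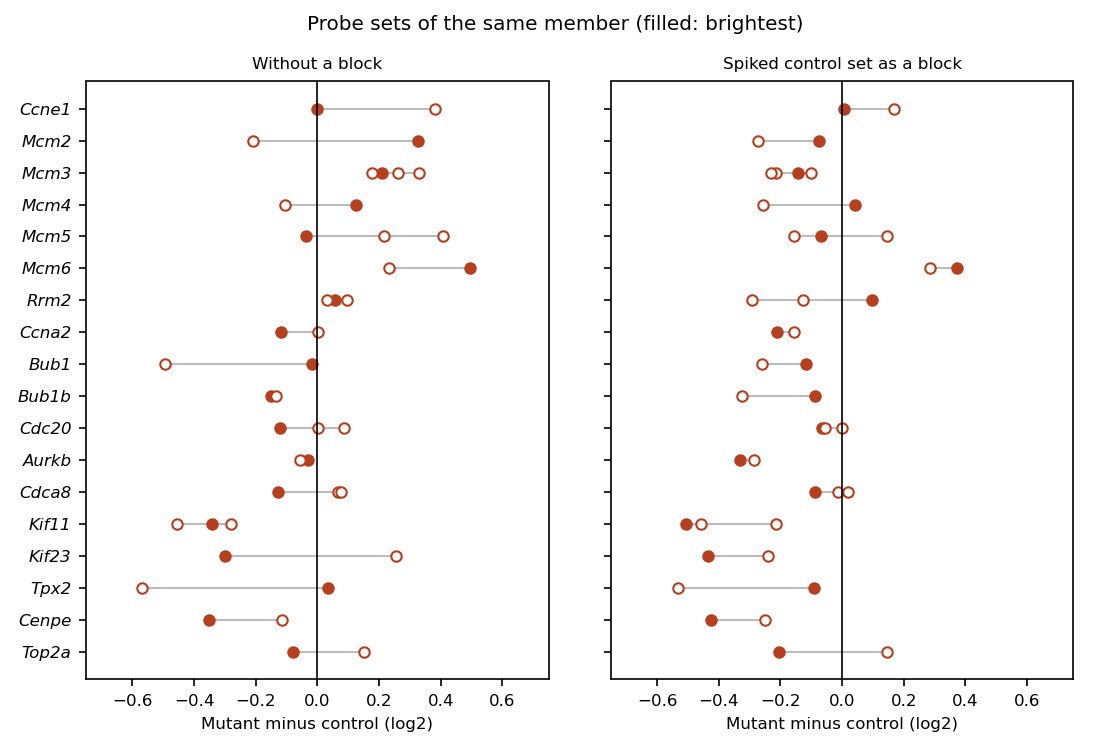
Mutant minus control difference (log2) of every tested probe set of the 18 members with more than 1, the brightest filled, without a block (left) and with the dap set as a block (right). Probe sets of Mcm2 and Kif23 lie on both sides of 0 on the left and on the negative side on the right, and those of Mcm6 lie on the positive side in both.

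Other genes of the same machinery had no called member either. None of 23 other replication genes passed (13 positive, 10 negative, median 0.04), and the brightest, Mcm7 and Rpa1, differed by 0.08 and -0.12. None of 33 other mitosis genes passed (8 positive, 25 negative, median -0.11, with 7913 of all 11446 tested genes negative). The brightest of these, Cks2 and Smc4, differed by -0.02 and -0.21. The groups did not overlap in 2 of these 33 genes, against 14.5% of all tested genes. They were the condensin subunits Ncapd2 and Ncaph, named after their values were seen, at -0.36 and -0.29 (limma adjusted p of 0.238 and 0.205). Pttg1, securin, which guards sister chromatids, was named after its value was seen and differed by 0.32 (limma adjusted p = 0.211). With the dap set as a block it was at 0.48 (limma adjusted p = 0.0444). It was the 1 gene of these 33 that passed there, against 3.73% of all tested genes.

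Among 19 regulators of the E2F, Rb and DREAM families none passed, 15 had a negative difference, as did 7913 of all 11446 tested genes, and the median was -0.21. Tfdp1, a partner of E2F factors, differed by 0.04, and Rb1, the retinoblastoma protein, by -0.08. The groups did not overlap in 4 of these 19 genes, against 14.5% of all tested genes. All 4 were lower in mutants and are named after their values were seen. Tfdp2, another E2F partner, read 6.87, 7.64, 7.39 and 7.89 in mutants and 8.30, 7.89, 8.22 and 8.41 in controls, a difference of -0.76 (SE 0.217, limma adjusted p = 0.0971). E2f7, a repressor, differed by -0.56, Lin9 by -0.27 and E2f3 by -0.23, with limma adjusted p from 0.131 to 0.177.

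None of 8 G1 cyclins and kinases passed, with Ccnd1, cyclin D1, at -0.003 and Ccnd2 at -0.37 (limma adjusted p of 0.993 and 0.393). None of 11 inhibitors of cyclin-dependent kinases and growth arrest genes passed. A negative difference was found in 9 of them, beside 7913 of all 11446 tested genes. Btg2, an antiproliferative gene, read 11.37 ± 0.35 (SD, n = 4) in mutants against 11.96 ± 0.31 (SD, n = 4) in controls, a difference of -0.60 (limma adjusted p = 0.158). Cdkn1c, the inhibitor p57, was at 11.42 ± 0.10 and 11.66 ± 0.10 (limma adjusted p = 0.173), and it was the 1 gene of these 11 without overlap between the groups, against 14.5% of all tested genes. Cdkn1a, the inhibitor p21, named after its value was seen, had a difference of 0.38 (limma adjusted p = 0.173).

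Cells that could carry these transcripts were measured by their markers. Of 9 microglia markers 8 rose and none fell, with Aif1 higher by 3.31 on the log2 scale (limma adjusted p = 0.00198), and the summed level of the list was 13.30 to 14.16 in mutants and 11.39 to 12.20 in controls. None of 8 endothelial markers passed, 1 with a positive and 7 with a negative difference (summed level 15.29 to 15.70 in mutants, 15.64 to 15.84 in controls). Tek, named after its values were seen, was lower by 0.46 (limma adjusted p = 0.0702). It was the 1 gene of these 8 without overlap between the groups, against 14.5% of all tested genes. Pecam1, the gene of the capture antigen, named after its values were seen, was the 1 with a positive difference (0.62). It read 11.09, 10.96, 10.99 and 9.09 in mutants. In controls it read 11.27, 9.56, 9.29 and 9.53, so it was higher on every array of the higher dap set than on the others. Cldn5 and Tek did not follow this split. Of 8 pericyte markers, 4 with a positive and 4 with a negative difference, only Pdgfrb passed, lower by 1.01 on its brighter probe set. Pdgfrb is itself the gene altered in the mutants, so its level cannot be read as pericyte content alone. The summed level of the list was 15.27 to 15.67 in mutants and 15.46 to 15.76 in controls. None of 7 tested neural progenitor markers passed (14.19 to 15.24 and 14.47 to 14.91), nor any of 4 oligodendrocyte precursor markers (9.18 to 10.99 and 10.04 to 10.54) or 6 neuron markers (11.13 to 11.99 and 10.78 to 11.66). No marker of these lists lay at the floor on all arrays. Of the erythroid markers Hba-a1 lay at the floor on every array and neither of the 2 tested passed, with summed levels of 6.96 to 7.59 in mutants and 6.33 to 8.13 in controls. The summed levels add linear values, so the brightest marker leads each sum. Fabp7 alone, a neural progenitor marker, ran from 14.06 to 15.14, and Cldn5 and Rgs5 led the endothelial and pericyte sums. The sums are therefore no measure of cell content. The part of any of these cells in the values of the members was not tested.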

How the data were processed

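The authors deposited log2 expression values per probe set, made with GCRMA per the submitters' processing notes; no version is stated there. The method models background from probe sequence and normalizes arrays by quantiles, so dim probe sets collect near a floor. The values ran from 2.18 to 16.49, from which the log2 scale is inferred. Of 45101 probe sets, 34958 had 1 symbol in the platform annotation, 932 several and 9211 none given. Genes above 4 on at least 4 of the 8 arrays, on their brightest probe set, were tested (11446 of 18194) by a two-sided moderated test (limma 3.58.1, R 4.3.3; lmFit, then eBayes) and Benjamini-Hochberg adjustment over all of them at 0.05; the fit was tested on simulated data. Arrays have no depth; their number limits the precision. That the brains were separate animals is read from the labels' biological replicate numbers.

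The members and lists were chosen with earlier results of these data known. All members may be named; from other lists the rule names up to 4 genes that passed by smallest p, or the 2 brightest, and genes named outside it are said to be. Alternatives were the filter, quantile normalization, centring, the choice or mean of probe sets, the replicate number as a block, variance trend, array weights and each array left out; fits with the dap set were added after seeing the data. The deviations of same-numbered arrays from their groups had correlations from -0.48 to 0.30. Replicate numbers 2 and 3 join arrays of different dap sets, so these correlations cannot decide whether the numbers pair arrays. Coordinates and promoter sequences are those of RefSeq, GRCm38.p6.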

Additional observations from a re-analysis of the deposited data

Results flagged for a closer look

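A value of 1 array stood apart from the other 3 of its group in 3 of the 60 member groups looked at, about as many as the 1 in 20 that chance gives. Mcm3 read 9.653 on mutant array 4, the only mutant array of the lower dap set, against 10.20 to 10.30 on the other mutants. Cdc20 read 11.21 on mutant array 2 against 11.66 to 11.68. Birc5 read 9.969 on control array 3 against 10.32 to 10.40 on the other controls.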

How the results depend on the processing

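No member was called in the 2 alternative filters, the second quantile normalization, the centring, either alternative for probe sets, the replicate block, the trend and robust fit or the fits with the dap set. Exceptions were array weights and the fit without mutant array 4. Array weights called 5 of the 30 members (Ccne2 at -0.25, Mcm2 at 0.62, Mcm6 at 0.53, Cdk1 at 0.26 and Plk1 at 0.52), against 3158 of all 11446 tested genes. They gave mutant array 3 a weight of 6.6 against 0.36 to 2.67 on the others. The fit without mutant array 4 called 1 of the 30 members, Mcm6, against 608 of all 11446 tested genes. The cause of these calls was not tested. Leaving out 1 array gave 0 to 1 called members. Signs held in all 21 alternatives for 9 members (Ccne2, Mcm6, Pcna, Cdk1, Kif11, Kif23, Cenpe, Ect2 and Mki67). The filters, the trend and robust fit and the replicate block could not change a sign, as they leave the difference as it was. Ccne2, Pcna, Cdk1, Ect2 and Mki67 had 1 tested probe set, so the choice of probe sets could not change theirs. The dimmer probe set of Kif23 alone gave 0.25. Positive members numbered 11, and 17 after the second quantile normalization, which moved the median of all genes from -0.11 to -0.06 and the share of higher calls from 58.0% to 66.9% (327 higher, 162 lower).

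Of all tested genes 524 were called, 259 with the replicate block (221 higher, 38 lower), 3158 with array weights, 303 to 608 with 1 array left out (320 without mutant array 3, 322 without control array 3, 303 without control array 4), and 81 and 41 within the higher and lower dap sets, where a lone array is assumed to vary like the others. Array weights also called 2 other replication genes, 5 other mitosis genes, 6 E2F, Rb and DREAM regulators, 1 G1 gene and 3 inhibitors; the dap set as a block and its 5′ minus 3′ signal as a covariate each called 1 other mitosis gene. Within the lower dap set the licensing genes had a mean difference of -0.14 (0.10 over all arrays), and within the higher set the spindle genes -0.34 (-0.16 over all arrays). For each of these roles this is the set that moved further. The median of all replication genes was -0.01 within the higher and -0.04 within the lower set. For the mitosis genes it was -0.21 and -0.15. Values near the floor of the arrays, as for Tyms, are not resolved.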
